A study of Drosophila melanogaster with 3 samples.

Results

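The genes described here are 10 translation factor genes of Drosophila melanogaster, of 13945 protein-coding genes examined: eIF4A, eIF4E1, eIF4G1, eIF1A, eIF2alpha, eIF5, eIF5B, eIF6, eEF1alpha1 and eEF2. eIF4A was chosen by its signal, since its promoter carries one of the strongest summits of the data, and the others were taken for their roles beside it. Its rank is therefore a description and is not tested. Chromatin immunoprecipitation and sequencing was done on whole embryos of mixed sex, aged 0 to 16 h, of 1 transgenic line in which GFP is fused to the C terminus of CG4424, a zinc finger protein. The GFP tag was precipitated with an anti-GFP antibody in 3 biological replicates, which form 1 group, so the data say where the tagged protein was found and hold no contrast between conditions. In whole embryos, binding in more cells and more binding per cell cannot be told apart.

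Translation initiation begins when eIF4E binds the cap of a messenger RNA and, through the scaffold eIF4G, brings in eIF4A, a DEAD-box helicase that unwinds the leader. The small ribosomal subunit, with eIF1A, eIF2 and its initiator tRNA, and eIF5, scans to the start codon, and eIF5B then joins the large subunit, which eIF6 keeps apart until then. eEF1alpha1 delivers aminoacyl-tRNAs to the ribosome, and eEF2 moves the ribosome along the message.

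The DNA under 4 of the member summits is shown here because it differs widely in base composition. All stretches are from the RefSeq assembly of dm6, are written 5′ to 3′ on the strand given, and carry no capitals except where a shared 8-letter sequence is marked. The eIF4A stretch (chr2L:5982431-5982460, + strand) holds the 8-letter sequence CAACACTG, in capitals, whose first base lies 14 bp below the summit. CAACACTG was picked after the values were seen, as the sequence in the eIF4A window with the highest ratio between summits and flanks. The other stretches are those at the summits of eIF5B (chr3L:3460739-3460768, + strand), eEF2 (chr2L:21682129-21682158, + strand) and eIF1A (chr3R:18274535-18274635, + strand).
eIF4A: ctggtgttaggCAACACTGgcgccactgtt
eIF5B: cgtgcgctgtttacgggaaccatttatcgc
eEF2: gaccatagagctgggacaattcttgatatt
eIF1A: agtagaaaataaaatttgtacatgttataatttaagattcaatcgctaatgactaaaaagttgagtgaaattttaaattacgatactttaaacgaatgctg
In the 50 bp on each side of the summit, G and C made up 52.5% of the eIF4A bases, 51.5% of the eIF5B bases, 49.5% of the eEF2 bases and 23.8% of the eIF1A bases. The median over all 6420 optimal summits was 31.7%, so eIF1A lay below it and the other 3 genes above it.

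Each region list gives a summit and a signal value from the authors' region caller, whose scale is not stated, so signals were compared within a list and lists were compared by rank. The optimal list, which the authors kept from the pooled list by their reproducibility threshold, holds 6420 regions with signals of 186 to 12375 and a median of 318. The pooled list holds 29056 regions, and the lists of replicates 1, 2 and 3 hold 22198, 30000 and 29796. Read depth is unknown here. Of the 10 members, 6 were occupied, meaning that an optimal summit lay within 500 bp of an annotated start (eIF4A, eIF6, eIF5B, eEF1alpha1, eIF1A and eEF2). Over all protein-coding genes this share was 24.9%. With a pooled summit of any rank in place of an optimal one, all 10 members had a summit at a start, against 50.5% of protein-coding genes. An optimal summit lay in the gene or within 5 kb of it at 7 of the 10 members, with eIF4E1 added, against 56.5% of protein-coding genes. At the 10 genes with 5 kb on each side there were 17 optimal summits, 75 pooled summits, and 60, 81 and 73 summits in replicates 1, 2 and 3.

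eIF4A (FBgn0001942, chr2L:5981764-5985909, + strand) had the third strongest summit of the optimal and of the pooled list. The summit stood at 5982456 in a region of 822 bp (chr2L:5981910-5982731), with a pooled signal of 7358. Its signals were 1586, 3521 and 2246 in replicates 1, 2 and 3, and its ranks there were 3, 4 and 3. The 3 replicates thus placed it among their 4 strongest summits. The pooled signal was 3.35 times that of eIF6, the next member, and 2.62, 3.95 and 3.20 times in the replicates. The gene has 3 annotated starts. The summit lay 93 bp downstream of the middle one, from which 1 transcript begins, and so inside the 5′ untranslated exon of that transcript. It lay 692 bp downstream of the most upstream start, used by 3 transcripts, and 138 bp upstream of the most downstream start, used by 2. Counted from the most upstream start alone, eIF4A was not occupied. The replicate summits stood 90, 93 and 96 bp from the middle start (93 ± 3 bp, SD, n = 3), so the replicates agreed within 6 bp.

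**Figure D1:**
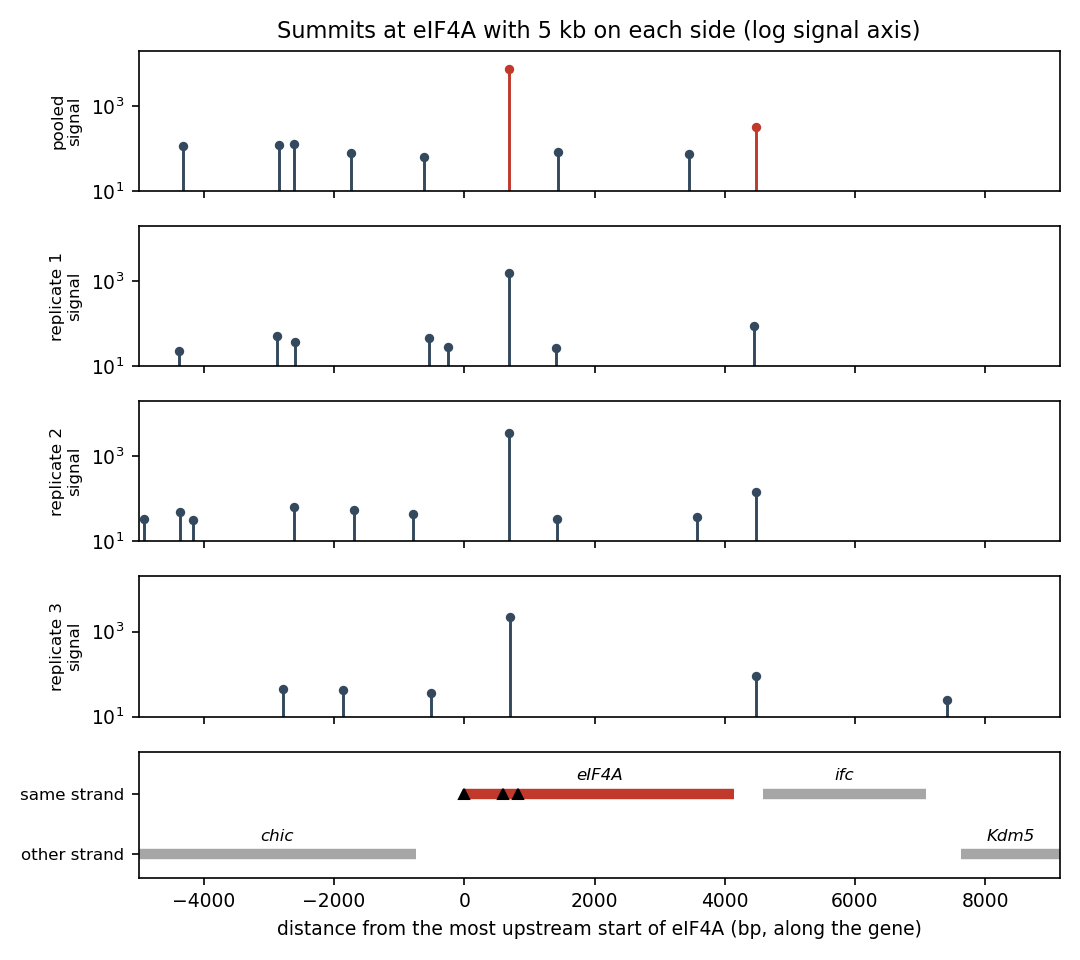
Signal of every summit at eIF4A and 5 kb on each side, by distance from the most upstream start of the gene (bp, log signal axis), in the pooled list and in replicates 1 to 3. Red marks the optimal summits, bars below are genes and triangles are the starts of eIF4A. A single summit stands far above all others in each list, between the first and the last start, and a weaker optimal one lies just before ifc.

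The rest of the eIF4A locus carried weak summits. Of its 9 pooled summits, 2 were optimal, and the other one stood at 5986248 (signal 322, rank 3173), past the end of eIF4A and 100 bp upstream of a start of ifc, a sphingolipid desaturase gene. Signals at that summit were 87.8, 142 and 91.5 in replicates 1, 2 and 3. The remaining 7 pooled summits had signals of 64.4 to 129, and 5 of them had a start of chic, the profilin gene, as their nearest. In the pooled list the eIF4A summit followed a site upstream of tna (signal 12375) and an intergenic site (10608), and preceded a site at Mob2 (7172) and one at SRPK (6109). By the distance between log10 ranks over the 3 replicates, the 3 of 3421 compared genes closest to eIF4A were SRPK and dup (distance 0.386), and CG14100 (0.492). SRPK, a kinase of splicing factors, and dup, a replication licensing gene, share 1 summit, with ranks 5, 5 and 6, and CG14100 had ranks 4, 8 and 7.

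The partners of eIF4A in cap binding, eIF4E1 and eIF4G1, had no optimal summit at a start, beside 24.9% of protein-coding genes with one. Their signals were lower than that of eIF4A, which was chosen by its signal, so that difference follows from the choice. The strongest pooled summit at a start of eIF4E1 (FBgn0015218, chr3L:9399618-9402460, − strand), the cap-binding protein, lay 50 bp upstream of a start with a signal of 170.4. That is rank 7119 of the pooled list, just under the lowest optimal signal of 186. At that site the signals were 37.6, 82.3 and 47.5 in replicates 1, 2 and 3, with ranks 9416, 5874 and 9822. The gene has 4 starts, and 4 pooled summits lay within 500 bp of them. In replicate 1 the strongest of these summits was another one, 71 bp upstream of a different start, with a signal of 52.9 and rank 6095. The 3 optimal summits near eIF4E1 had signals of 229.9, 232 and 201, and all 3 lay beyond its end, at the neighbour CG4080, 1 of them 33 bp upstream of a start of that gene. eIF4G1 (FBgn0023213, chr4:915297-930715, − strand), the scaffold, lies on the small chromosome 4 and had a pooled summit 13 bp upstream of its start with a signal of 132. Signals were 51.0, 42.2 and 28.3 in replicates 1, 2 and 3, ranks 6389, 13315 and 21825, a spread wider than that of eIF4E1.

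Of the 3 members that act on the scanning small subunit, 1 was occupied, a count near the 24.9% share over protein-coding genes. eIF1A (FBgn0026250, chr3R:18274665-18283005, + strand), which helps to open the small subunit for scanning, had its summit 80 bp upstream of a start, with a pooled signal of 259.7 and rank 4220. Replicates 1, 2 and 3 gave signals of 71.9, 128.9 and 51.5 and ranks 4092, 3273 and 8780. Replicate 3 thus put it below its 6420 strongest. A start of Vps39, a gene of vesicle tethering on the other side of the summit, also lay within 500 bp, so the region cannot be given to one gene. At eIF2alpha (FBgn0261609, chrX:16445176-16446993, − strand), the subunit of the initiator tRNA carrier that stress kinases phosphorylate, the pooled summit 75 bp downstream of the start had a signal of 71.0 and rank 21782. Signals there were 27.4 in replicate 1 and 36.7 in replicate 2, while the summit of replicate 3 (28.1) stood at another site, 478 bp upstream of the start. eIF5 (FBgn0030719, chrX:15987008-15991974, − strand), the GTPase activator of eIF2, had a pooled summit 176 bp upstream of a start with a signal of 99.3 and rank 13734. Starts of CG46312 and of exd, a homeobox gene, lay within 500 bp of that summit. Its replicate signals were 36.7, 23.9 and 33.1 and its ranks 9756, 28270 and 17001.

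eIF5B (FBgn0026259, chr3L:3428658-3460977, − strand), the GTPase of subunit joining, held the most summits of the 10 members, with 23 pooled and 5 optimal ones. It is also the longest of the 10 genes, so more sequence was searched there, and the counts are not scaled by length. One of the 5 stood at the promoter, at 3460753, 150 bp upstream of the start of 3 transcripts and 224 bp downstream of the start of the other 2. Its pooled signal was 462 (rank 1862), and signals were 139, 174 and 156 in replicates 1, 2 and 3. The other 4 stood inside the gene body, 21927 to 27717 bp from the nearest start of eIF5B, within all 5 transcripts and in no exon, that is, in intronic sequence. Their pooled signals were 493, 454, 289 and 244, so 1 of them was above the promoter summit and another close to it. The strongest, at 3438676, had signals of 88.7, 218 and 173 in replicates 1, 2 and 3, and the next, at 3432886, had 114.5, 178 and 154. In replicate 1 both were below the promoter summit, and in replicate 2 both were above it. Each of the 4 was overlapped by a region in all 3 replicates, and for each the nearest start of any gene was that of sty, a receptor tyrosine kinase inhibitor, 7951 to 13741 bp away. The DNA at the 2 strongest intronic summits is shown because it lies apart from any start (chr3L:3438626-3438726 and chr3L:3432836-3432936, dm6, + strand, no capitals).
eIF5B intron, strongest: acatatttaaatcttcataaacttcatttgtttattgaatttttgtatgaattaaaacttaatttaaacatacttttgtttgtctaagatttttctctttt
eIF5B intron, next: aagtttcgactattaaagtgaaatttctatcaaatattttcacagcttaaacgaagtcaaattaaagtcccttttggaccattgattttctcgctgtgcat

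**Figure D2:**
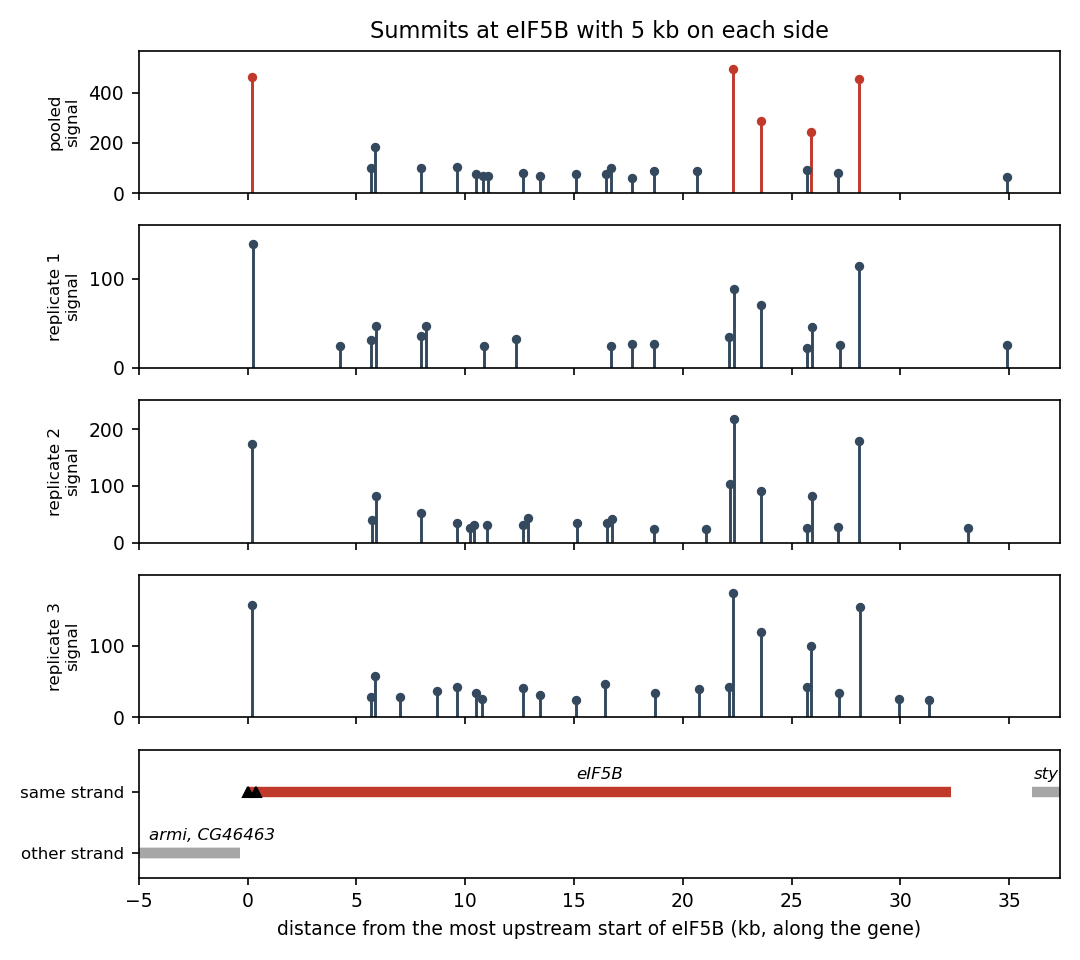
Signal of every summit at eIF5B and 5 kb on each side, by distance from its most upstream start (kb along the gene), in the pooled list and in replicates 1 to 3. Red marks the 5 optimal summits, bars are genes and triangles are the starts of eIF5B. The promoter summit and a group of 4 intronic summits stand above the rest in the pooled list, and the signal axis differs between panels.

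eIF6 (FBgn0034915, chr2R:23849246-23850301, − strand), which keeps the large subunit from joining too early, was the second strongest member. Its summit at 23850400 lay 99 bp upstream of its only start, with a pooled signal of 2194 and rank 67. Signals were 606, 891 and 702 in replicates 1, 2 and 3, with ranks 58, 76 and 66, and the replicate summits fell within 17 bp of each other. A start of the antisense RNA gene asRNA:CR45928 lay nearer, 70 bp from the summit, so eIF6 was not occupied when a summit counted for the nearest start only. A second optimal summit, at 23844858 (signal 875, rank 570), lay 4388 bp from the gene and 95 bp upstream of a start of Snap29, a membrane fusion gene. Its ranks were 550, 605 and 602, a narrow range like that of the promoter summit.

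Both elongation members were occupied, at lower signals than eIF6, beside 24.9% of protein-coding genes. eEF1alpha1 (FBgn0284245, chr2R:11891135-11895762, + strand) had its summit 84 bp upstream of the third of its 4 starts, with a pooled signal of 452 and rank 1932. Replicates 1, 2 and 3 gave 209.8, 112 and 152, with ranks 715, 3945 and 1896, so the replicates spread more widely than at eIF6. The summit lay 903 and 642 bp downstream of the upstream starts. Optimal summits of signal 474 and 289 also lay upstream of eEF1alpha1, inside its neighbour ERp60, a protein disulfide isomerase gene. eEF2 (FBgn0000559, chr2L:21677913-21682164, − strand) had its only optimal summit 21 bp downstream of one start and 27 bp upstream of the other, with a pooled signal of 198 and rank 5989, near the lower end of the optimal list. Its replicate signals were 62.1, 68.7 and 77.1 and its ranks 4957, 7413 and 5095.

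**Figure D3:**
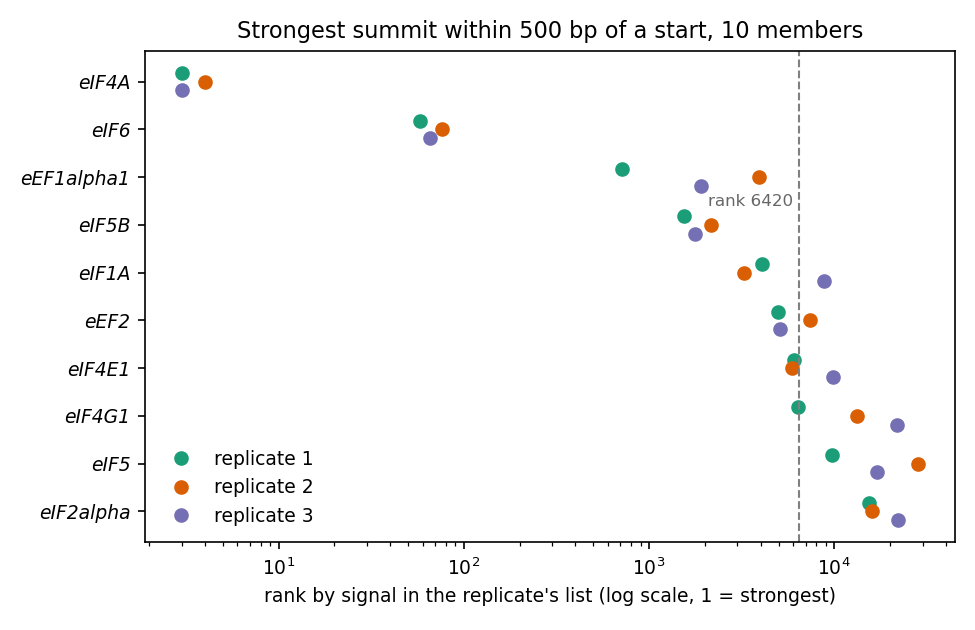
Rank of the strongest summit within 500 bp of a start for each member (rows) in the list of each replicate (colours), on a log axis where 1 is the strongest. The dashed line is rank 6420. eIF4A and eIF6 stand apart at ranks 3 to 4 and 58 to 76, while the ranks of eIF1A, eEF2, eIF4E1 and eIF4G1 straddle the line.

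Ordered by the mean log10 rank over the 3 replicates, the members ran eIF4A, eIF6, eEF1alpha1, eIF5B, eIF1A, eEF2, eIF4E1, eIF4G1, eIF5 and eIF2alpha. The rank ranges of neighbours in this order did not overlap between eIF4A and eIF6, between eIF6 and eEF1alpha1, and between eIF5B and eIF1A. Since eIF4A was chosen by its signal, its place and its gap to eIF6 follow from that choice. All other neighbouring pairs overlapped and were not separated by these replicates. Among the 6420 strongest regions of each replicate, 8, 6 and 5 members were occupied in replicates 1, 2 and 3 (6.33 ± 1.53, SD, n = 3). The shares over protein-coding genes were 25.8%, 25.6% and 23.6%. The 4 members occupied in all 3 replicates were eIF4A, eIF6, eIF5B and eEF1alpha1. eIF1A lay outside the 6420 strongest of replicate 3 and eEF2 outside those of replicate 2. eIF4E1, with no optimal summit at a start, lay among those of replicates 1 and 2, and eIF4G1 among those of replicate 1. When an optimal region had to be among the strongest of both replicates kept, eIF1A was lost without replicate 1 or 2 and eEF2 without replicate 1 or 3. At the edge of the 5 kb window, the Snap29 summit near eIF6 (4388 bp) was inside, and summits 5147 and 5348 bp from eEF1alpha1 (signals 347 and 697) were outside.

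Beyond the 10 members, a list of 63 translation factor genes that contains them was examined by role. Of these, 25 were occupied (39.7%), against 24.9% of protein-coding genes, and without the members the count was 19 of 53 (35.8%). In the replicates, 28, 26 and 23 listed genes were occupied (40.7% ± 3.99, SD, n = 3), against 24.98% ± 1.23 of protein-coding genes. The list's share lay above the protein-coding share in each of the 3 replicates. The list was written with these data known, and the optimal list was drawn from the same replicates. A pooled summit of any rank lay at a start of 50 of the 63 genes (79.4%). The median signal of the 25 was 416, and 407 without the members, against 374 over the occupied protein-coding genes.

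**Figure D4:**
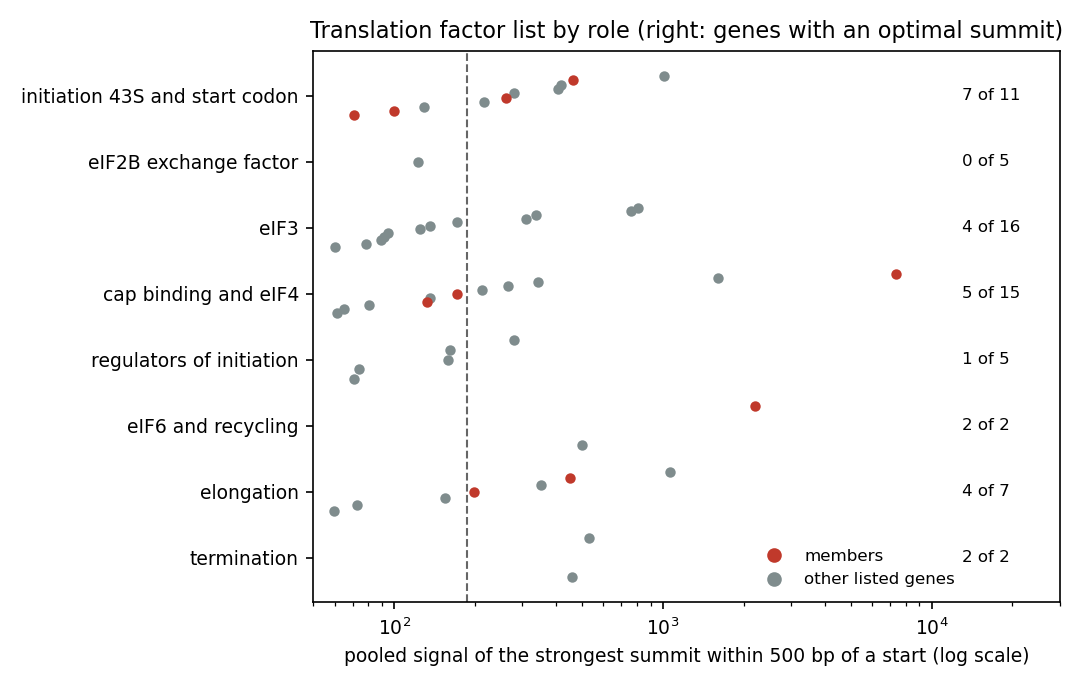
Pooled signal (log axis) of the strongest summit within 500 bp of a start for the listed genes, by role, with members in red and the other listed genes in grey. Genes with no pooled summit are not drawn, the dashed line is the lowest optimal signal of 186, and the figures at the right count the genes with an optimal summit. eIF4A stands alone above all other genes, and the eIF2B row has a single point, left of the line.

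The roles hold 2 to 16 genes each, and no difference between them was tested, so their counts are given beside the 24.9% of protein-coding genes. Of the genes of the preinitiation complex and start codon selection, eIF5B included, 7 of 11 (63.6%) were occupied. eIF1, which guards start codon choice, was the strongest (1013), followed by eIF5B, eIF2D (416), eIF2beta (407), eIF2A (279), eIF1A and MCTS1 (216). The summits of eIF1, eIF1A and MCTS1 also lay within 500 bp of another gene's start, so they cannot be given to a single gene. None of the 5 genes of eIF2B, which recharges eIF2 with GTP, had an optimal summit at a start, and 1 had a pooled one. In eIF3, the scaffold of the small subunit, 4 of 16 genes (25%) were occupied, close to the share over protein-coding genes: eIF3h (806), eIF3c (758), eIF3m (336) and eIF3a (309). Among the cap-binding and eIF4 genes 5 of 15 (33.3%) were occupied. Beside eIF4A these were eIF4EHP (1599), a cap-binding protein that represses translation, NAT1 (342), eIF4G2 (264) and pAbp (212), the poly(A)-binding protein. Of the 5 regulators of initiation 1 (20%) was occupied, Thor (279), the eIF4E-binding protein.

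The remaining roles had fewer genes. eIF6 and pix (498), an ABC protein of ribosome recycling, form a group of 2. Both had an optimal summit at a start, against 24.9% of protein-coding genes. Both termination genes had one too, eRF1 (529) and eRF3 (459). Each of these summits also lay within 500 bp of another gene's start, so none can be given to a single gene. Of 7 elongation genes 4 (57.1%) were occupied, against 24.9% of protein-coding genes: eEF1gamma (1062), a subunit of the exchange factor of eEF1alpha1, eEF1alpha1 itself, eEF5 (352) and eEF2. The strongest listed genes outside the members kept high ranks in every replicate. eIF4EHP ranked 140, 135 and 163, and eEF1gamma ranked 258, 459 and 395, in replicates 1, 2 and 3. eIF1 spread more widely, with ranks 163, 884 and 476.

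Starts and summit positions were compared with those of protein-coding genes as a description. Among the 25 occupied genes the summit lay upstream of the nearest start at 20 (80.0%), against 89.5% of occupied protein-coding genes. The median position was −60 bp, against −139 bp. Of the 25 genes, 18 have several starts, against 1461 of the 3469 occupied protein-coding genes. With more starts the nearest one can lie closer to the summit, and the part of start number in both comparisons was not tested. The summit lay within 500 bp of another gene's start at 12 of the 25 (48.0%), against 61.0%. These 12 were eIF1, eIF1A, MCTS1, eIF3a, eIF3h, eIF3m, eIF4EHP, eIF4G2, eIF6, pix, eRF1 and eRF3, and their summits cannot be given to a single gene. When a summit counted for the nearest start only, 21 listed genes were occupied, against 18.4% of protein-coding genes. Several annotated starts were found at 29 of the 63 listed genes (46.0%), against 26.5% of protein-coding genes. Of listed genes with several starts, 18 of 29 (62.1%) were occupied, against 39.5% of such protein-coding genes. Of those with a single start, 7 of 34 (20.6%) were occupied, against 19.6%. Listed genes with 1 start were thus occupied about as often as other genes with 1 start. Genes with several starts have more sequence within the 500 bp window, and its part in the list's share was not tested.

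**Figure D5:**
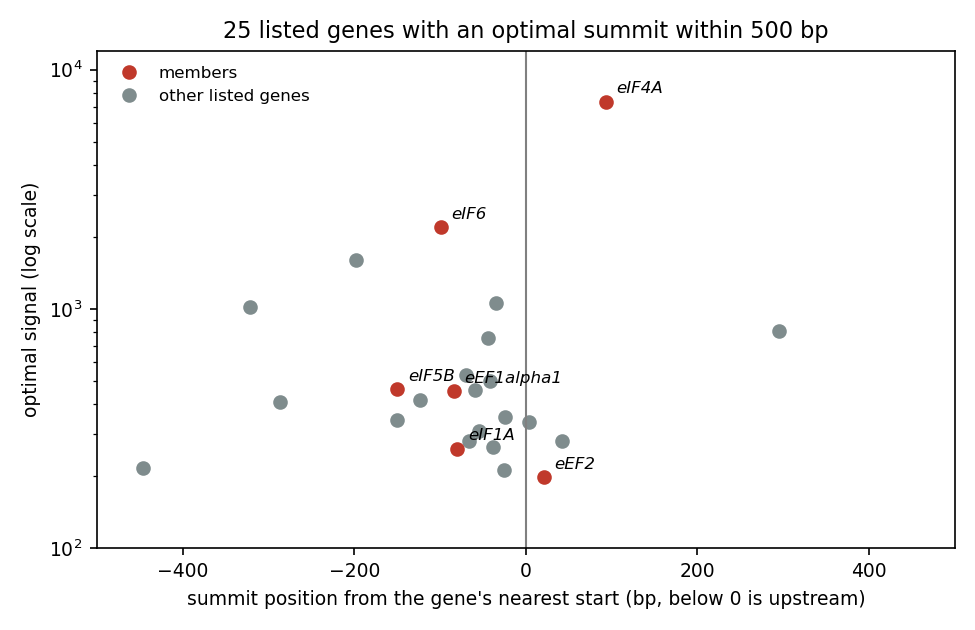
Optimal signal (log axis) against the position of the summit from the nearest start of the gene (bp, negative is upstream) for the 25 occupied listed genes, with the members in red and named. Most summits lie in the 200 bp upstream of a start, and eIF4A, the highest point, lies 93 bp downstream of one.

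Base composition was also set beside that of other summits. The median share of G and C in the 50 bp on each side was 44.6% over the 25 occupied listed genes, against 31.7% over the occupied protein-coding genes. It was above the median of the optimal summits at 19 of the 25. eIF4A exceeded 97.1% of the optimal summits, eIF5B 96.6% and eEF2 94.98%, and eIF1A exceeded 14.5%. eIF6 had 40.6% and eEF1alpha1 48.5% of G and C.

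The 8-letter sequence CAACACTG at eIF4A lay in the windows of 108 of 6420 optimal summits (1.68%), against 30 of 12840 flanking windows 500 bp away (0.234%). Among the 1419 sequences of 8 letters found in at least 1% of summit windows, its ratio of 7.2 was the second highest and the same as that of TATCGATA. eIF4A holds it by the choice of the sequence. It lay at 3 of the other 19 of the 20 strongest summits, at no further one of the 100 strongest, at 1.59% of the 3210 strongest and at 1.78% of the other 3210. The 3 are a site 501 bp downstream of a start of lncRNA:CR45937 (signal 4023, rank 14), a site 126 bp upstream of tRNA:Leu-TAG-1-2 (3931, rank 15) and the SRPK site (6109, rank 5). Of the 24 occupied listed genes other than eIF4A, 1 had it, eIF2A (4.17%), against 3.14% of the other occupied protein-coding genes, a share near the background. To set them beside the eIF4A match, 3 other matches are shown in capitals: eIF2A (chr3L:21824925-21824954, + strand), lncRNA:CR45937 (chr3L:18234250-18234279, + strand) and tRNA:Leu-TAG-1-2 (chr3R:30248782-30248811, − strand), from RefSeq, dm6.
eIF4A: ctggtgttaggCAACACTGgcgccactgtt
eIF2A: aaatcgttgacCAACACTGattgtacatca
lncRNA:CR45937: ctgctgcacggCAACACTGgtcggtcgctc
tRNA:Leu-TAG-1-2: acgagtgtcggCAACACTGctggaaaatcc

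A set of 5 known promoter motifs was also searched on both strands: TATCGATA, bound by DREF and BEAF-32, the palindrome CAGCTG, the repeat GAGAG bound by Trl, the sequence TATAAA of TBP, and the core promoter element called Motif 1. None of the 5 contains another. TATCGATA was in the summit windows of 5 of the 25 listed genes (20%), against 4.47% of occupied protein-coding genes, and in those of none of the 6 occupied members. In the promoters, counted as the 250 bp before to 50 bp after the most upstream start, it was at 4 of the 10 members (eIF4A, eIF1A, eIF2alpha and eIF6) and 17 of the 63 listed genes (27.0%), against 9.37% of protein-coding genes. At eIF4A the summit lay 692 bp downstream of that start, from which the gene was not occupied. The 5 summit matches are shown in capitals, since each has its first base 6 to 26 bp from the summit, and that at eEF1gamma covers the summit. They are on the + strand of dm6: eIF1 (chr3L:3223034-3223063), eIF2A (chr3L:21824865-21824894), eIF3a (chr3R:4433915-4433944), pix (chr3L:8974778-8974807) and eEF1gamma (chr3R:29220120-29220149).
eIF1: ggcagggcaacTATCGATAagcatttcgta
eIF2A: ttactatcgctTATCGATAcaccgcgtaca
eIF3a: cctggctgcgtTATCGATAgttcaggccga
pix: gccgttgaaacTATCGATAtcaataagtgg
eEF1gamma: ggcctaggaaaTATCGATAtatcgccgtaa

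The other motifs showed no such excess at the promoters of the list. At summits, CAGCTG was in no window of the 25 listed genes, against 4.76% of occupied protein-coding genes. GAGAG was in 3 (12.0%), eIF4A among them, against 8.04%, and TATAAA was in 4 (16.0%), eIF6 among them, against 23.6%. Motif 1 was in none, against 1.01%. In promoters, CAGCTG was at 4 of the 63 listed genes (6.35%), against 17.7% of protein-coding genes, and GAGAG at 11 (17.5%), against 29.8%. TATAAA was at 30 (47.6%), against 45.9%, and Motif 1 at 3 (4.76%), against 4.50%. The pyrimidine runs CCTTT or TCTTT, searched on the gene's own strand and beginning within 5 bp of a start, were at 2 of the 10 members, eIF4A and eEF2, and at 8 of the 63 listed genes (12.7%), against 3.51% of protein-coding genes. Such runs are part of the sequence by which messages of the translation machinery are regulated in mammals. Several annotated starts were more common among listed genes (46.0%, against 26.5%), and their part in the share of genes with a run was not tested.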

How the data were processed

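The files are lists of regions with a signal value and a summit, from 3 biological replicates. Each signal value was deposited by the authors as their region caller wrote it, with a control alignment as comparison, per the notes deposited with each sample. No scale is stated. Relaxed lists exist for each replicate and for pooled reads, and a threshold on the irreproducible discovery rate gave the optimal list, per the same notes. Caller and aligner: not given in the sources used here. Read depth is unknown. Lists on dm3 were not used. Summits were counted from 1 on dm6 and set against Ensembl release 115 starts (2L, 2R, 3L, 3R, 4, X, without transposable elements), and sequence came from the RefSeq assembly.

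A gene was occupied when a summit lay within 500 bp of any start. No test was made. To leave out a replicate, only optimal regions were kept that overlap, by at least 1 bp, the 6420 strongest regions of both others. The members and the list of 63 genes were chosen with earlier results of these data known. Named are the members, the occupied listed genes, other genes with a start within 500 bp of a member's promoter summit, and the 3 genes closest to eIF4A in rank. The neighbours at other summits and the genes at sites of equal sequence or rank were named after their values were seen. The counting steps were checked on simulated data with 200 planted genes, of which 200 were recovered. Python 3.11.15, numpy 2.4.6, pandas 2.3.3 and matplotlib 3.10.9 were used.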

Additional observations from a re-analysis of the deposited data

How the results depend on the processing

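No paired analysis was possible because the 3 replicates form a single group. Of 46 alternative values for 10 results, 36 stayed within 1.5 times the main count or 1 SD between replicates. With all pooled summits, 10 members and 50 listed genes were occupied, against 50.5% of protein-coding genes. With the 3210 strongest optimal summits, 4 of the 10 members had a summit within 5 kb, against 39.0% of protein-coding genes, a share near that of the members. Per replicate, a mean of 3.67 members were occupied with the 3210 strongest regions and 10 with all regions. The share over protein-coding genes was not computed for these settings, so the means are not set against a background. Leaving out each replicate gave 4 to 5 occupied members and 21 to 23 occupied listed genes, against 20.8% to 21.6% of protein-coding genes. It gave 5 to 6 members with a summit within 5 kb, against 50.2% to 51.2% of protein-coding genes, near the share of the members. The mean was then 5.5 to 7 members per replicate and the eIF4A position 91.5 to 94.5 bp, and 6 to 8 members kept their place in the order. The windows for sequences were varied after seeing the data. CAACACTG was at 0.872% of optimal summits with 25 bp on each side and at 3.01% with 100 bp. At least 1 of the 5 promoter motifs was at 2 of the 6 occupied members, and at 0 with 25 bp on each side. Unknown read depth limits all statements on weak summits.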

Other observations

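The 8-letter sequence at eIF4A was found at strong and weak summits. CAACACTG lay at 10 of the 500 strongest optimal summits (2%). The median signal was 315 at the 108 summits that hold it and 319 at the 6312 that do not.

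Occupancy was also counted by pyrimidine runs at starts, with no test. Of the 8 listed genes with CCTTT or TCTTT at a start, 5 were occupied (62.5%), against 20 of the 55 without (36.4%). Those 5, eIF3m, eIF4A, pAbp, eEF2 and eEF5, each have several annotated starts. Of all listed genes with several starts, 62.1% were occupied, and the part of start number was not tested. Over all protein-coding genes, 174 of 489 with such a run were occupied (35.6%), against 3295 of 13456 without (24.5%).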
